A study of Mus musculus with 4 samples.

Results

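The genotype difference in unchallenged bronchial epithelium is the difference between 2 of the 4 arrays of the study, the control array labelled Pla2g3-/- minus the Pla2g3+/+ control array. Its members are the genes whose probe was well above background on at least 1 of these 2 arrays. They numbered 23222 of the 27746 genes on the array, and 4524 genes were above background on neither.

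Expression was measured in cells of the airway lining isolated from the lungs of mice, in allergic asthma induced with ovalbumin (OVA). Both control groups and both challenged groups consist of mice described only by genotype, Pla2g3+/+ or Pla2g3-/-; their age, strain background and the part of the gene that was removed are not given in the sources used here. The series describes sensitisation with 10 µg OVA and 1.3 mg alum in 0.2 ml on days 0 and 14, an aerosol of 1% OVA for 30 min on each of days 26, 27 and 28, and lung collection 3 h later. Which of these steps the control mice received is not stated. For each group the RNA was a pool of 4 samples and went onto 1 single-colour array, so every value below describes 2 hybridisations, without a check by replicates and without p-values. Slide position and group cannot be told apart.

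Pla2g3 encodes the secreted group III phospholipase A2, which cleaves membrane phospholipids into a free fatty acid and a lysophospholipid, precursors of lipid mediators. The conducting airway is lined by secretory club cells, ciliated cells, mucus-making goblet cells and the basal cells that renew them. T cells, which lead several results below, mature in the thymus. There the Rag1 and Rag2 proteins cut T cell receptor gene segments, Dntt adds bases at the joins, and the first rearranged beta chain is tested together with the pre-T alpha chain, Ptcra, before CD4 and CD8 appear.

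Pla2g3 itself checks the labels, and its signal went against them. It is measured by a pair of probes, both 60 bases long and on chromosome 11 (mm9), and the first 30 bases of each are shown because they say which stretch of the transcript was read.
Pla2g3 probe, chr11:3394109-3394168, plus strand, first 30 bases: aggagtaaatgaattaatcaacacacatac
Pla2g3 probe, chr11:3393127-3393186, plus strand, first 30 bases: ctgcaagtaacccaggcaatctggagacgc
The first probe read 239 intensity units on the Pla2g3+/+ control array, against 2023 on its counterpart labelled Pla2g3-/-. On the challenged arrays, in the same order, it read 254 and 4154. The second probe read 44.1 and 177 units on the control arrays and 13.1 and 336 on the challenged arrays. Both probes were thus brighter on both arrays labelled Pla2g3-/-. After each array was scaled to its 75th percentile of signal, the control arrays differed by 3.19 on the log2 scale at the first probe (9.14-fold) and by 2.12 at the second. The sources used here do not say which stretch of the gene was removed, and probes that lie outside it check nothing. Arrays are therefore called by what they are labelled, and the direction of each difference follows those labels. Values are given below as pairs, the Pla2g3+/+ array first.

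Differences are log2 values of the array labelled Pla2g3-/- minus the Pla2g3+/+ array, each array scaled to its own 75th percentile, so that 1 is a 2-fold difference. Where a probe was above background on 1 array only, the difference is a bound and is written as one. The dim side was then set to the lowest signal called well above background on that array, or to the probe's own signal if that was higher. The 2 control arrays had 75th percentiles of 1986 and 1834 intensity units, and 80.9% and 80.4% of probes well above background. Of 399 probes printed 10 times, 335 were above background on both control arrays, and the SD of a difference between their repeated spots had a median of 0.09 and a 95th percentile of 0.44. Among the dimmest of these probes the same figures were 0.18 and 0.68. The error that the scanner software gives for each signal came to a median of 0.20 for a difference. These errors cover spots alone, and not mice, pools, labelling or hybridisation.

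The label of the tissue was checked against markers. Transcripts of airway epithelium were at high levels on both control arrays. Scgb1a1, the main secretory protein of club cells, read 458278 and 436776 units, Krt18, a keratin of simple epithelia, 181258 and 164602, and Foxj1, the master regulator of motile cilia, 22437 and 15996. All 17 club cell markers and all 24 ciliated cell markers were above background on both. The pan epithelial and basal cell lists were close to alike in the pair: 0 of 16 pan epithelial genes and 0 of 12 basal cell genes differed 2-fold. The summed level of the pan epithelial list, in multiples of the array's 75th percentile, was 354 on the Pla2g3+/+ array and 337 on that labelled Pla2g3-/-. Of the club cell genes 1 of 17 was lower, the uroplakin gene Upk3a at −1.33, and of the ciliated genes 1 of 24, Tmem212 at −1.02. The ciliated list had a median of −0.30 against −0.03 over all genes measured. Of 16 goblet cell and mucus genes 1 was higher, Clca1 at 1.43, and 1 lower, Slc26a4 at −3.54. The summed level of that list was 165 on the Pla2g3+/+ array and 230 on that labelled Pla2g3-/-. Markers of leukocytes, endothelium and mesenchyme were above background too. For every result below, a different number of cells of a type and a different amount of RNA per cell cannot be told apart.

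At a threshold of 2-fold, 754 genes (3.25% of those measured) had the higher signal on the control array labelled Pla2g3-/-, and 417 (1.80%) had the lower signal. Of these, 162 and 131 are bounds. With another background correction, normexp, the numbers of genes 2-fold higher and lower were 356 and 95. The higher side reached further. At 4-fold the counts were 212 higher and 66 lower, and at 8-fold 82 higher and 9 lower. Most genes differed little: among the 22257 genes above background on both arrays, the 5th and 95th percentiles of the difference lay at −0.57 and 0.65. In the dimmest 25% of genes above background on both arrays 3.50% were 2-fold higher and 2.75% lower, and in the brightest 25% the shares were 0.845% and 0.216%. Of the called genes with several measured probes, 79.3% (119 of 150) had all probes of 1 sign.

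**Figure D1:**
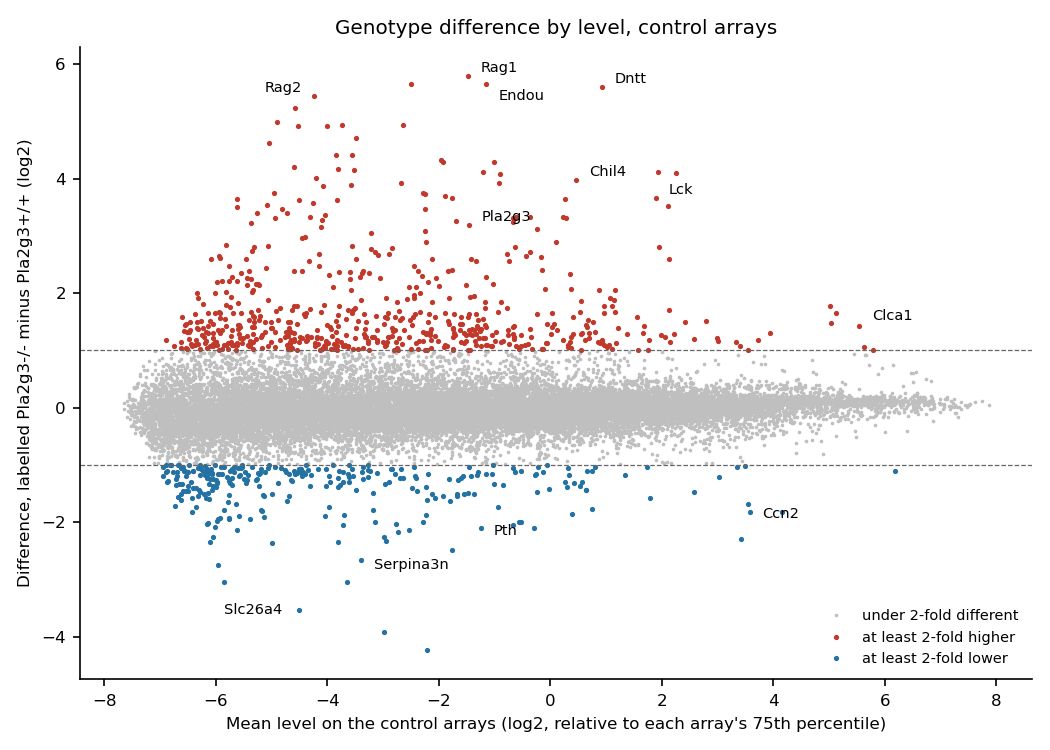
Difference between the control arrays (log2, labelled Pla2g3-/- minus Pla2g3+/+) against mean level (log2, relative to each array's 75th percentile) for the 22257 genes above background on both arrays, 1 point a gene. Points above the upper dashed line are at least 2-fold higher and points under the lower line at least 2-fold lower; Rag1 (5.80), Endou (5.66) and Dntt (5.60) lie at the top, and Slc26a4 lies at −3.54.

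Among genes with a name of their own, leaving out clone, predicted, Riken, Gm and accession names, genes of developing T cells made up 19 of the 25 largest positive differences. The T cell lists were drawn up with earlier results of these data known, so their direction is not independent evidence. The recombination genes led. Rag1 read 96.3 units on the Pla2g3+/+ control array and 4945 on that labelled Pla2g3-/-, and 58.3 and 348 on the challenged arrays. Rag2 read 16.0 and 642, and 19.5 and 66.6. Dntt read 542 and 24238, and 549 and 1445. In each of these 3 genes the control array labelled Pla2g3-/- stood far above the other 3 arrays, and the challenged array labelled Pla2g3-/- came next. The differences between the control arrays were 5.80 for Rag1 (55.6-fold), 5.44 for Rag2 (43.4-fold) and 5.60 for Dntt (48.4-fold). Of 9 measured genes of the recombination list 5 were higher and 0 lower, with a median of 1.24, and with the mean of each gene's probes 4 were higher, with a median of 0.16. The others higher were Dclre1c, the Artemis nuclease that opens the cut ends, at 1.24 (−0.06 with the mean of its probes) and the joining segment Tcrb-J at 2.59 (1.17 with normexp). Of end-joining genes that all cells use, Lig4 was at 0.11, Xrcc4 at 0.16 and Nhej1 at 0.02, while Xrcc6, the Ku70 subunit, which is outside the list, was at 1.23.

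Promoters of 4 of these genes, from 250 bases before to 50 after the start site in the RefSeq table (GRCm38.p6), are shown because the genes were high together on 1 array. Capitals mark matches, on either strand, to 6 short motifs of factor families known in T cell development, each counted on its own with no overlap removed. CAGCTG was searched as an E-box. CAGGTG was searched as a second E-box. GGAAGT stands for the ETS family. TGTGGT stands for the RUNX family. AGATAA stands for the GATA family. CTTTGA stands for the TCF family.
Rag1 promoter, chr2:101649483-101649782, minus strand: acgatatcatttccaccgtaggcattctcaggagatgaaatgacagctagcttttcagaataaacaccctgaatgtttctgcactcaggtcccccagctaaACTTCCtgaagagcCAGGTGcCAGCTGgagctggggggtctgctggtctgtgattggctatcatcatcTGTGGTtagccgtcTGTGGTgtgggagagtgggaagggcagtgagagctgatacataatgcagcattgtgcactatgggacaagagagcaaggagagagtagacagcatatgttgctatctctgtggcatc
Rag2 promoter, chr2:101624462-101624761, plus strand: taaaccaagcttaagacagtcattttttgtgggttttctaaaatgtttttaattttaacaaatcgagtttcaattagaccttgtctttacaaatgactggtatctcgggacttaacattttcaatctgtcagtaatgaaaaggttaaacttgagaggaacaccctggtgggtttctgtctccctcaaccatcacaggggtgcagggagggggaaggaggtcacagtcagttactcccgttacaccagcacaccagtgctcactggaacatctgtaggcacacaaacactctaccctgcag
Ptcra promoter, chr17:46763663-46763962, minus strand: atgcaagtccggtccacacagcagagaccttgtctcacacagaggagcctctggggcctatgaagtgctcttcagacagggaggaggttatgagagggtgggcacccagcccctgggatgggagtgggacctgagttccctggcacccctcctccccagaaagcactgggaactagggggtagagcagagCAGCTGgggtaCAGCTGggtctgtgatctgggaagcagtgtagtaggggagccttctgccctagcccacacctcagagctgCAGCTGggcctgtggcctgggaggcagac
Cd3d promoter, chr9:44981536-44981835, plus strand: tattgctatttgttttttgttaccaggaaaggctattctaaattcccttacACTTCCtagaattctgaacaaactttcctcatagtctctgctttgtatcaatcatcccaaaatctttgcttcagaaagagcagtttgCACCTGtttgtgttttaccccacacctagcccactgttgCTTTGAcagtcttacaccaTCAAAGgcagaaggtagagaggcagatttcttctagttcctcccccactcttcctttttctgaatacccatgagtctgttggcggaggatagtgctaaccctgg
The Rag1 window held 5 matches, the Ptcra window 3, all CAGCTG, the Cd3d window 4 and the Rag2 window 0. A gene was counted if any of its promoters held a match. Over 34 genes of the T cell lists that were called higher and had a promoter in the table, CAGCTG was found in 32.4%, against 18.4% of 15109 measured genes. The 34 were picked by this same difference, and T cell genes that were not called were not counted beside them. The share was 41.2% against 22.5% for the second E-box, 35.3% against 15.9% for the TCF motif, 41.2% against 29.3% for the ETS motif, 23.5% against 16.4% for the RUNX motif and 20.6% against 9.9% for the GATA motif. Such short matches are a description of letters in a window and say nothing of binding.

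The pre-T receptor, the CD3 complex and the T cell coreceptors were higher as a group. Of 16 measured genes 13 were higher and 0 lower, with a median of 2.74. The summed level of the list was 6.13 times the 75th percentile on the Pla2g3+/+ control array and 23.9 times on that labelled Pla2g3-/-, and 4.61 and 5.80 on the challenged arrays. Ptcra read 22.4 and 626 units on the control arrays, and 21.6 and 25.1 on the challenged arrays, a control difference of 4.92 and a challenged difference of 0.09. Such dim genes differed by less with normexp, where Ptcra was at 3.04, Rag2 at 3.28 and Myl10 at 2.64. Cd8a, a chain of the coreceptor for MHC class I, read 119 and 2145, and 60.7 and 174. Its second probe gave 3.93 beside 4.29. Cd8b1, the partner chain, differed by 4.08 and Trat1, an adaptor that binds the receptor complex, by 4.42. The CD3 signalling chains differed by 3.33 (Cd3d), 3.24 (Cd3g) and 2.06 (Cd3e). Among the rest were the costimulatory receptors Cd28 (2.90) and Cd27 (2.24), and Cd5 (2.72) and Cd6 (2.65), which dampen receptor signals. Cd4, the coreceptor for MHC class II, read 5275 and 6783 units, a difference of 0.48. Cd247, the zeta chain, was at 0.53 and Cd2 at 0.71.

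Most kinases and adaptors downstream of the T cell receptor were higher too. Lck, the kinase that starts receptor signalling, read 2083 and 24275 units on the control arrays and 1272 and 2774 on the challenged arrays, a control difference of 3.66 (12.6-fold). Of 16 genes 12 were higher and 1 lower, with a median of 2.35. Sh2d1a, the adaptor SAP, was at 4.94, Themis, which sets thresholds of thymocyte selection, at 3.89, Lat, the scaffold of the receptor signal, at 3.34, Skap1 at 3.12 and Zap70 at 2.41. Thy1, a surface protein of mouse T cells that belongs to none of the lists and was picked after its value was seen, read 2510 and 26868 units, a difference of 3.53. The lower gene was Gimap3, a GTPase of mature lymphocyte survival, with 1199 and 395 units and a difference of −1.49.

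Transcription factors of T cell development were higher in 10 of 21 cases and lower in 0, with a median of 0.85. Tcf7, which commits progenitors to the T lineage, read 207 and 3305 units, and 120 and 270 on the challenged arrays. Its pair of probes gave 4.11 and 4.09. Bcl11b, which seals that commitment, was at 3.75 (3.40 at its second probe), Gfi1 at 3.66, Satb1, a chromatin organiser of thymocytes, at 3.64, Gata3 at 3.08 and Lef1 at 2.63. Notch1, the receptor that starts the programme, was at 1.41 (0.72 with the mean of its probes), Ikzf1 at 1.45 and Tox at 1.38. Myb, a factor of blood progenitors, was at 0.69, and Zbtb7b, which directs the CD4 fate, at −0.14.

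Markers of thymocyte stages were uneven. Of 19 genes 7 were higher and 0 lower, with a median of 0.62. Endou, a nuclease gene, read 126 and 5859 units on the control arrays, and 118 and 250 on the challenged arrays, a control difference of 5.66. H2-T3, which encodes the thymus leukaemia antigen, was at 4.94 and Ccr9, the receptor for the thymic and gut chemokine Ccl25, at 4.30. Myl10 was at 4.99, Tctex1d1 at 3.63 and Arpp21 at 3.57. Cd24a read 61647 and 52942 units, a difference of −0.11. It is also an epithelial gene. Further genes among the 25 largest positive differences, which belong to no list, were Chrna9 (4.92), a nicotinic receptor subunit, Tmem151b (4.42), Syt13 (4.32), Nsg2 (3.93) and Slc16a5 (3.92, with 0.26 at its second probe).

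Over the 5 T cell lists, 46 different genes were called higher, and 45 of them had their highest scaled level of the 4 arrays on the control array labelled Pla2g3-/-. So did 626 of all 754 genes called higher, and picking genes by this array favours that outcome. The exception among the 46 was Notch1, which read 11166 units on the challenged array labelled Pla2g3-/-. Between the challenged arrays 45 of the 46 had a positive difference, 17 reached 2-fold, and the median was 0.93 against 3.18 between the control arrays. Of the 686 genes called higher and measured in both pairs, 527 were positive there and 192 reached 2-fold.

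**Figure D2:**
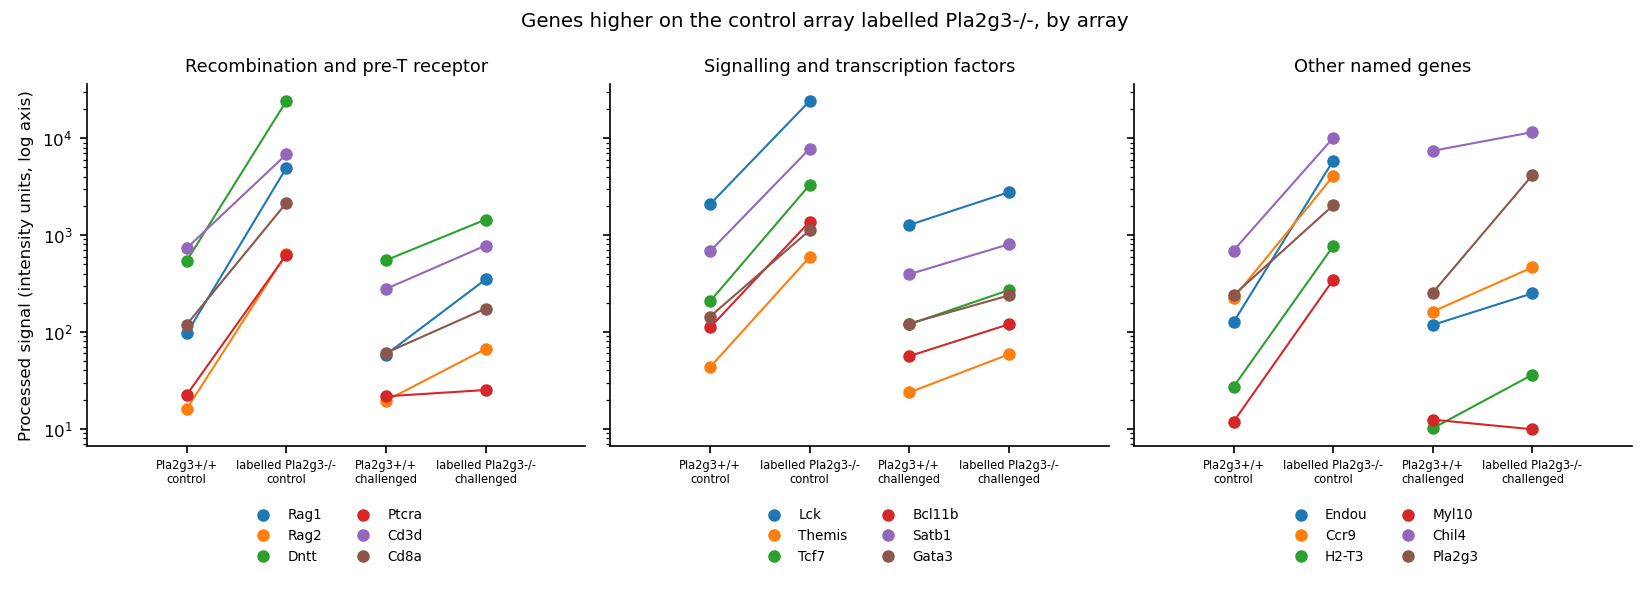
Processed signal in intensity units (log axis) of 18 genes on the 4 arrays, 1 point an array, with lines joining the arrays of the same treatment. Rag1, Dntt, Ptcra and Lck stand highest on the control array labelled Pla2g3-/-. Chil4 is also high on both challenged arrays, and Pla2g3 on the challenged array labelled Pla2g3-/- only.

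Genes read from the antigen receptor loci were counted by the probes' own descriptions, a grouping made after values were seen. All 15 measured T cell receptor beta genes were higher, with a median of 2.85, as were 12 of 35 alpha genes (1 lower, median 0.42), 3 of 4 gamma genes and 1 of 7 delta genes. All of these were above background on the control array labelled Pla2g3-/-. On the Pla2g3+/+ control array 11 beta, 27 alpha, 3 gamma and 3 delta genes were. The rest are bounds that count as measured only through the array labelled Pla2g3-/-, which favours a higher call. Of immunoglobulin genes 6 of 42 heavy chain genes were higher and 0 lower, 1 of 20 kappa genes was higher and 3 lower, and 2 of 4 lambda genes were lower. Segments within a locus are near copies of one another, so probes may share transcripts. Windows of the genome count many of these segments a second time, so they are no separate support. In windows of 5 Mb (mm9), the largest share of higher genes was on chromosome 6 from 40000001 to 45000000, where 24 of 80 were called (30.0%). That window holds the beta receptor locus. Next came chromosome 10 from 25000001 to 30000000, with 4 of 19 called (21.1%), Themis among them and no receptor segment. The window on chromosome 14 from 50000001 to 55000000, with the alpha and delta locus, had 27 of 129 (20.9%), and that on chromosome 13 from 15000001 to 20000000, with the gamma locus, 5 of 29 (17.2%). The largest share of lower genes among those windows with at least 4 was on chromosome 6 from 65000001 to 70000000, which holds the kappa light chain locus, with 8 of 71 (11.3%). In the same window 4 of 71 genes were higher (5.63%).

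Genes of cell division were higher beside the T cell genes. Of 27 cell cycle genes 14 were higher and 0 lower, with a median of 1.03. Top2a, the topoisomerase of mitotic chromosomes, read 409 and 1142 units (1.59), Mki67, the proliferation marker, 2176 and 5065 (1.33), Rrm2, which makes deoxynucleotides, 1854 and 4989 (1.54), and Birc5, survivin, 3897 and 9619 (1.42). All 14 were highest on the control array labelled Pla2g3-/-, as were 626 of all 754 genes called higher on it. Between the challenged arrays all 14 were positive and 0 reached 2-fold. Of 10 histone genes 4 were higher, led by the linker histone H1f5 (780 and 5363 units, 2.90) and H2ac4 (3542 and 19889, 2.60). Their window on chromosome 13, from 20000001 to 25000000, had 15 of 97 genes higher (15.5%).

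Other white cell lists differed from the T cell lists in size. Of 15 pan leukocyte genes 6 were higher (median 0.83), among them Ptprc, the common leukocyte antigen, at 1.17 and Coro1a at 1.21, and their summed level was 25.2 and 43.9 on the control arrays. Of 21 genes of mature and activated T cells 4 were higher and 1 lower (1 and 0 with normexp), with a median of −0.02. The higher ones were Ccr4 (2.26), the inhibitory receptor Pdcd1 (1.27), the interleukin 2 receptor chain Il2ra (1.16) and Icos (1.06), and the lower one S1pr1 (−1.20), the receptor that naive T cells use to leave lymphoid organs. With normexp Ccr4 was at 1.03, Pdcd1 at 0.93, Il2ra at 0.97, Icos at 0.77 and S1pr1 at −0.89. Ccr7, a homing receptor of naive cells, read 1355 and 628 units, a difference of −0.99. Klf2, which drives S1pr1, read 4287 and 2709 units, a difference of −0.55. Neither Ccr7 nor Klf2 reached 2-fold. Which cells gave the signal of S1pr1, Ccr7 and Klf2 was not tested. Of 12 NK and innate lymphoid genes 1 was higher, Gzma at 1.28, and 1 lower, Areg. Of 20 neutrophil genes 3 were higher, Mpo (1.59, and 0.78 with normexp), Lcn2 (1.30) and Cxcr2 (1.07, and 0.60 with normexp), with a median of 0.36. Of 22 macrophage genes Chil3 was higher (2.80) and the scavenger receptor Marco lower (−1.37), with a median of 0.15.

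Markers of the thymic stroma were given with them because the list was fixed beside the thymocyte genes. Of 20 measured, 2 were higher and 0 lower, and the median was −0.11. With normexp the count was 0 higher. Foxn1, the factor that defines thymic epithelium, read 12.2 and 45.5 units on the control arrays and 40.3 and 10.4 on the challenged arrays. Pax1 read 53.5 and 102 units, a difference of 1.05. Psmb11, the thymoproteasome subunit, was at 0.38, Aire at 0.25, Prss16 at 0.85 and Ccl25 at 0.89. The summed level of the list was 188 and 175, set mostly by keratins such as Krt8 and Krt5 that the airway also makes. The part that cells of other organs have in the T cell result was not tested.

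**Figure D3:**
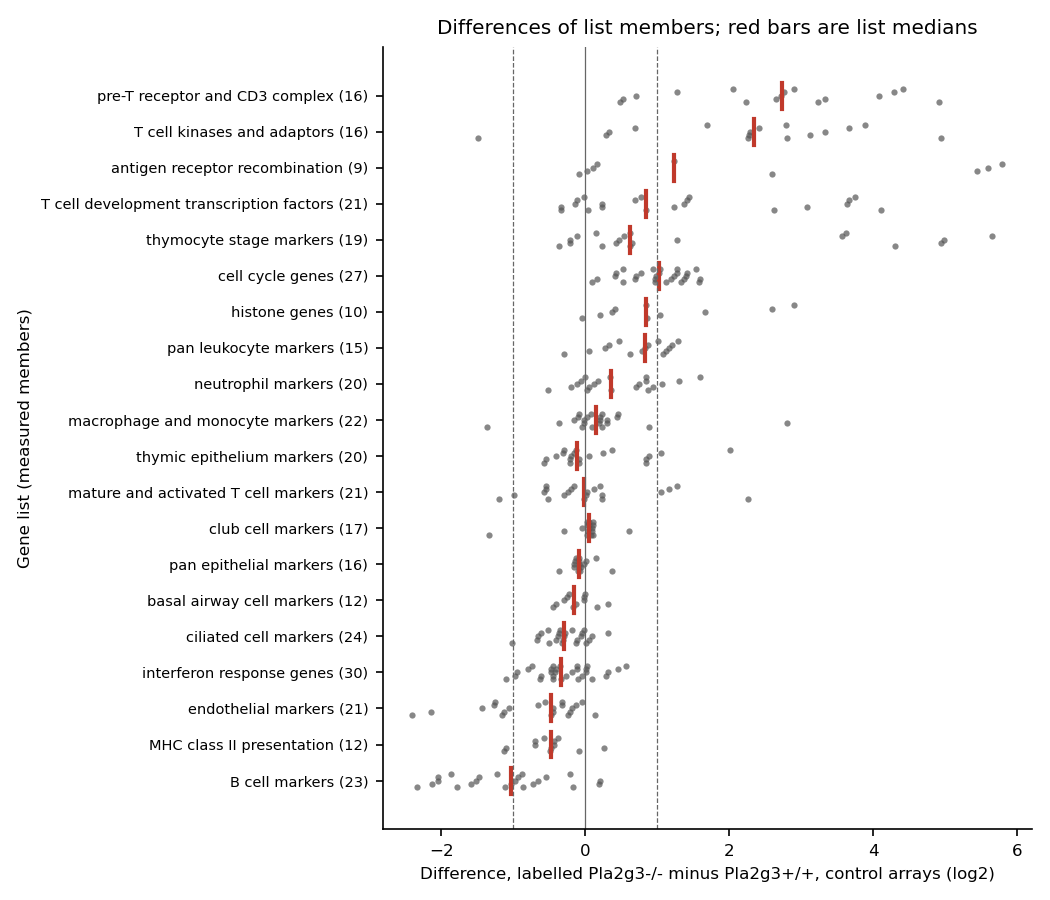
Differences between the control arrays (log2) for the measured members of 20 gene lists, 1 point a gene, with red bars at list medians and the number of measured members in brackets. T cell lists extend to 5.80, pan epithelial, basal and club lists have medians near 0, and the B cell list has its median at −1.03.

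B cell genes went the opposite way from T cell genes. Of 23 measured 12 were lower and 0 higher, with a median of −1.03. Ms4a1, which encodes CD20, read 2812 and 929 units on the control arrays and 869 and 1125 on the challenged arrays, a control difference of −1.48. Fcmr, the receptor for IgM, read 2555 and 569, and 616 and 605 (−2.05). In both genes it was the Pla2g3+/+ control array that stood apart, and the other 3 arrays lay close together. That array was the highest of the 4 in all 12 called B cell genes, and in 294 of all 417 genes called lower. Others were Tnfrsf13c, the BAFF receptor (−2.33, and −1.17 at its second probe), Fcrl1 (−2.13, and −0.69 with normexp), the follicle homing receptor Cxcr5 (−2.04), Bank1 (−1.78), the complement receptor Cr2 (−1.58) and the receptor signalling chains Cd79a (−1.51) and Cd79b (−1.03). Between the challenged arrays 0 of the 12 differed 2-fold, with a median of 0.22. MHC class II genes had a median of −0.48, and 2 of 12 were lower (0 with normexp), the B cell genes H2-Eb2 (−1.13) and H2-DMb2 (−1.10). Plasma cell genes had 1 of 9 higher, Jchain, the joining chain of IgA and IgM, at 1.09 (0.99 with normexp).

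Endothelial genes were lower in 8 of 21 cases and higher in 0, with a median of −0.47. With normexp 3 of 21 were lower. Mmrn2, a matrix protein of vessels, read 717 and 150 units on the control arrays and 611 and 466 on the challenged arrays (−2.14). Cldn5, a tight junction protein of endothelium, read 290 and 99, and 321 and 256 (−1.44). Vwf, von Willebrand factor, read 2500 and 1033, and 2404 and 3434 (−1.16). Here the control array labelled Pla2g3-/- was the low one and the other 3 were near one another or higher. Tie1, an orphan receptor of vessels, was above background on the Pla2g3+/+ control array alone of that pair and had a bound of −2.40 (−0.62 with normexp). Lyve1, a marker of lymphatic vessels, was at −1.13 (−0.77 with normexp). Kdr, the main VEGF receptor, was nearly level (5707 and 5075 units, −0.05). Of the 25 largest negative differences, Ptprb (−2.0), the endothelial phosphatase that restrains Tie2, and Sparcl1 (−1.99) are vessel genes outside the list. Glycam1, a mucin of the high endothelial vessels of lymph nodes, had a bound of −3.07. Between the challenged arrays Ptprb was at −0.59, Sparcl1 at −1.78 and Glycam1 at 1.65. Sparcl1 was thus low on both arrays labelled Pla2g3-/-, and Glycam1 changed sign.

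With clone, predicted, Riken, Gm and accession names left out, the largest negative difference among genes above background on both control arrays was that of Slc26a4, pendrin, the exchanger that moves anions into the airway surface liquid. It read 297 units on the Pla2g3+/+ control array and 23.5 on that labelled Pla2g3-/-, and 6671 and 465 on the challenged arrays. Both arrays labelled Pla2g3-/- were below their counterparts, with differences of −3.54 without challenge (11.7-fold, and −1.76 with normexp) and −3.97 with it. In the anion transport list, Cftr, the cystic fibrosis chloride channel, read 381 and 738 units (1.07, or 0.97 with normexp; 1.95 between the challenged arrays) and Clca1, a secreted regulator of calcium-activated chloride currents, 56639 and 140892 (1.43; 0.16).

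The remaining genes with large negative differences were of mixed kind. Serpina3n, an acute phase protease inhibitor, read 479 and 69.3 units, and 642 and 3315 on the challenged arrays, so that its sign differed between the pairs (−2.67 and 2.24). Areg, amphiregulin, an EGF receptor ligand, read 319 and 58.0, and 253 and 403 (−2.35 and 0.54). Ereg, a relative, had a bound of −1.58 (−0.42 with normexp), and both lie in the same window of chromosome 5. Ccn2, a matricellular protein induced by TGF-beta and stretch, read 44574 and 11648, and 19143 and 8335 (−1.82 and −1.33). Gal3st2, a sulfotransferase that acts on mucin-type sugars, was at −2.0 and −2.59, Ces1b, a carboxylesterase, at −2.0 and −1.83, Dcstamp at −2.26 and −1.61, and Tmem221 at −3.04 and −1.63. Of immediate early and MAP kinase feedback genes 4 of 27 were lower and 2 higher, with Dusp8 at −2.05 (−0.90 at its second probe), Fosb at −1.20, Myc at −1.19, Spry4 at a bound of −1.07 (−0.19 with normexp) and Dusp2 at 1.18. The stress chaperone gene Hspa1a read 4960 and 1274 units, and 996 and 1867 (−1.85 and 0.78).

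Pth, parathyroid hormone, read 1754 units on the Pla2g3+/+ control array and 375 on that labelled Pla2g3-/-, and 45.9 and 148 on the challenged arrays. It was high on both control arrays relative to the challenged arrays, and highest on the Pla2g3+/+ control array. Its control difference was −2.11 and its challenged difference 1.56. The other genes of the parathyroid and thyroid list did not differ 2-fold, with the endocrine granule gene Chga at 3357 and 1966 units (−0.66). In the cartilage list 2 of 6 measured genes were higher, Col2a1, the collagen of hyaline cartilage, with 15.8 and 156 units (3.41) and Comp with 52.4 and 105 (1.11, and 0.59 with normexp). The part of neighbouring tissue in these values was not tested.

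Of the 25 largest negative differences, 18 had their highest value on the Pla2g3+/+ control array, a share close to that of all genes called lower (294 of 417). Between the challenged arrays 8 of the 25 were also at least 2-fold lower and 4 at least 2-fold higher. Of the 375 genes called lower and measured in both pairs, 102 were lower there and 41 higher.

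**Figure D4:**
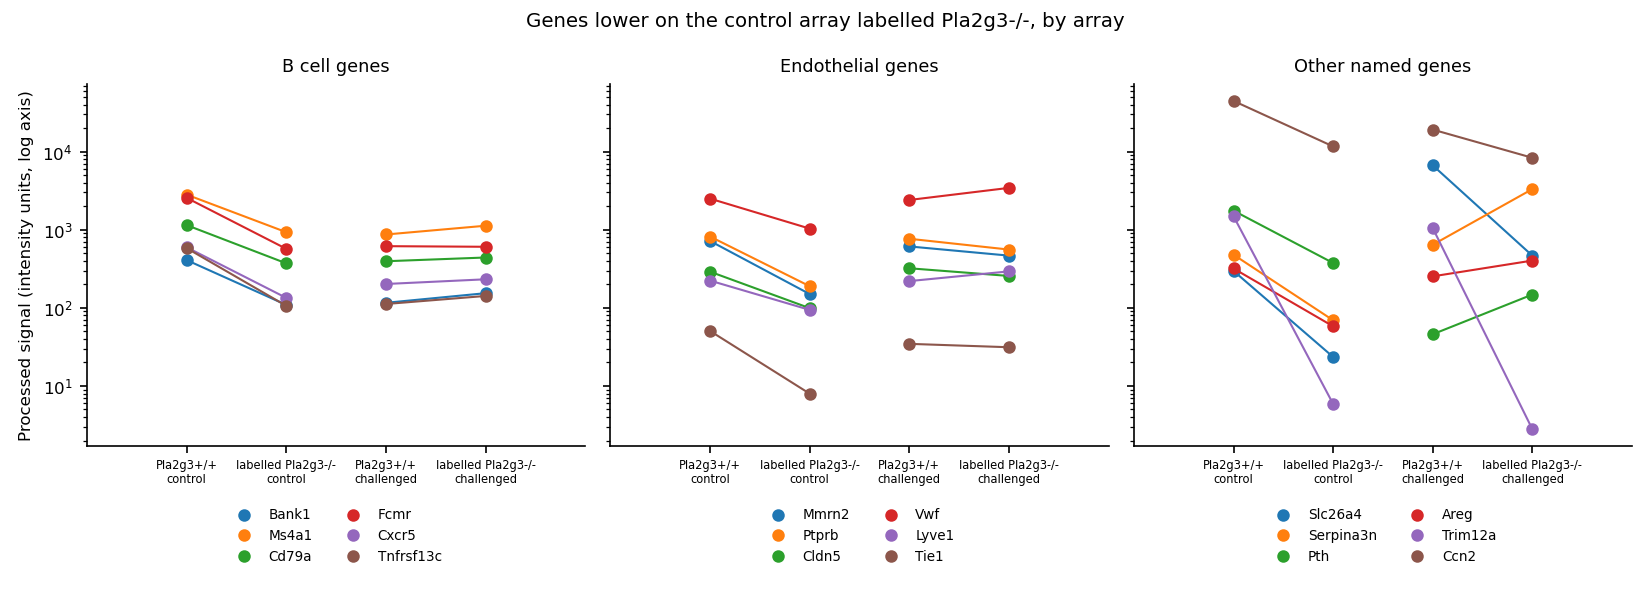
Processed signal in intensity units (log axis) of 18 genes with a lower signal on the control array labelled Pla2g3-/-, 1 point an array, with lines joining the arrays of the same treatment. B cell genes such as Ms4a1 are high on the Pla2g3+/+ control array alone. Slc26a4 and Trim12a are lower on the array labelled Pla2g3-/- within each pair, and Serpina3n and Pth slope opposite ways in the 2 pairs.

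The chitinase-like genes Chil4 and Chil3 were higher, and the chemokine list was mixed. Chil4, a secreted chitinase-like protein of type 2 inflammation, read 692 and 10063 units on the control arrays and 7413 and 11552 on the challenged arrays, a control difference of 3.98 (15.7-fold). Only the Pla2g3+/+ control array was low in it. Chil3 read 2903 and 18654, and 14752 and 26412 (2.80). The type 2 list as a whole had a median of 0.02, with 4 of 19 higher and 1 lower (3 and 0 with normexp), and Itln1 was at 0.39, Retnla at 0.51 and Fcgbp at −0.01. Of 28 chemokine genes 6 were higher and 1 lower (2 and 0 with normexp), with a median of 0.14. Cxcl1, a neutrophil attractant, read 24.7 and 102 units (2.16), Cxcl5, another, 238 and 962 (2.13), and Ccl17, which draws T helper 2 cells, 174 and 357 (1.15, and 0.94 with normexp), while Ccl24, eotaxin-2, was at −1.15 (−0.69 with normexp). With normexp Cxcl1 was at 1.04 and Cxcl5 at 1.89. Cxcl2 had a bound of 1.09, and 0.16 with normexp. Of acute phase genes 4 of 18 were higher and 1 lower, including the orosomucoids Orm2 (2.32) and Orm1 (1.78) and the lipocalin Lcn2 (4024 and 9142 units, 1.30), with Saa3 at −1.17. Interferon response genes had 0 of 30 higher and 1 lower, Rsad2 at −1.10, and a median of −0.34.

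Lipid mediator genes were mostly level apart from Pla2g3. Of 13 measured secreted phospholipase A2 and receptor genes, Pla2g3 was the only one to differ 2-fold (2 did with the mean of probes), and Pla2g2c, Pla2g12a and Pla2g5 were at 0.35, 0.26 and −0.63. Among 15 intracellular phospholipase A2 genes 1 was higher, the cytosolic enzyme Pla2g4c, with 17.2 and 186 units on the control arrays and 255 and 1549 on the challenged arrays (3.55 and 2.47). With normexp the control difference of Pla2g4c was 1.60. Pla2g4a, the main cytosolic enzyme for arachidonic acid release, was at −0.02. Of 34 eicosanoid enzymes and receptors 2 were higher and 2 lower. The thromboxane receptor Tbxa2r, which thymocytes carry, was at 2.60 (1.94 with normexp) and the prostaglandin E receptor Ptger1 at 2.39 (1.26 with normexp). The inducible cyclooxygenase Ptgs2 was at −1.15 and the prostaglandin D receptor Ptgdr at −1.17, and with normexp these were −0.92 and −0.64, so that 0 were lower. Of 25 lysophospholipid enzymes and receptors 3 were higher, Lpcat2 (1.75), which remakes phosphatidylcholine from its lyso form, and the receptors Gpr132 (1.41) and P2ry10 (1.30), and 1 was lower, S1pr1 (0 with normexp). Of 23 lipid synthesis genes 0 differed 2-fold.

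Genes beside Pla2g3 on chromosome 11 were close to level, with 1 exception. Of the 10 nearest protein-coding genes after it and the 7 that lie between it and the start of the chromosome, all 17 were measured, 0 were higher and 1 was lower, with a median of −0.21. The lower one was Inpp5j, an inositol polyphosphate phosphatase gene next to Pla2g3. It read 1882 and 524 units on the control arrays and 1851 and 512 on the challenged arrays, so both arrays labelled Pla2g3-/- were low, with differences of −1.73 and −1.98. Its probe lies at chr11:3394386-3394445 (mm9) on the minus strand, next to the brighter Pla2g3 probe on the plus strand. Rnf185, on the other side of Pla2g3, was at −0.21.

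A single gene gave the largest negative bound. Trim12a, of the family of antiviral ubiquitin ligases, read 1489 units on the Pla2g3+/+ control array and 5.88 on that labelled Pla2g3-/-, where it was not above background, and 1048 and 2.79 on the challenged arrays. The bounds were −7.29 without challenge and −6.68 with it, and a second probe gave bounds of −4.0 and −3.45. Of 11 measured Trim genes of this list 3 were lower, the others being Trim34a (1302 and 421 units, −1.51, or −0.88 with the mean of its probes; −1.29 between the challenged arrays), in the same window of chromosome 7 from 110000001 to 115000000, and Trim69 (−2.74, or −0.84 with normexp; 0.06 between the challenged arrays), which lies on chromosome 2. Trim12c was at −0.13 and Trim30a at −0.37.

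The challenged arrays allow the same comparison of labels on arrays that the control comparison did not use. There 895 genes were at least 2-fold higher (3.84% of 23320) and 569 lower (2.44%). Of the 22735 genes measured in both pairs, 686 were higher between the control arrays and 737 between the challenged arrays, and 192 were higher in both, 28.0% of the first list and 26.1% of the second. Of 375 and 519 lower genes 102 were shared, 27.2% and 19.7%, and 36 and 41 genes went opposite ways. The 2 differences had a Pearson r of 0.34 across 21576 genes, and genes are no replicates.

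Few genes differed strongly in both pairs. With a threshold of 8-fold, set after values were seen, 3 were higher in both and 5 lower in both. The higher were Pla2g3, 2210407C18Rik and C430049E01Rik. The transcript 2210407C18Rik read 13.5 and 469 units on the control arrays and 17.2 and 5541 on the challenged arrays (5.23 and 8.20), at chr11:58421714-58421773 (mm9). C430049E01Rik was higher by at least 4.15 and at least 4.28. The lower were Slc26a4, Trim12a, Gm5067 (1864 and 91.3 units, and 2157 and 130; −4.24 and −4.19), 2610507I01Rik (985 and 59.9, and 887 and 40.3; −3.92 and −4.59) and Gm45941, with bounds of −3.44 and −3.71. In Gm5067 and 2610507I01Rik the levels paired by labelled genotype on the challenged and control arrays alike. The transcript 2610507I01Rik lies on chromosome 11 close to 2210407C18Rik, from 59011304 to 59011363.

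**Figure D5:**
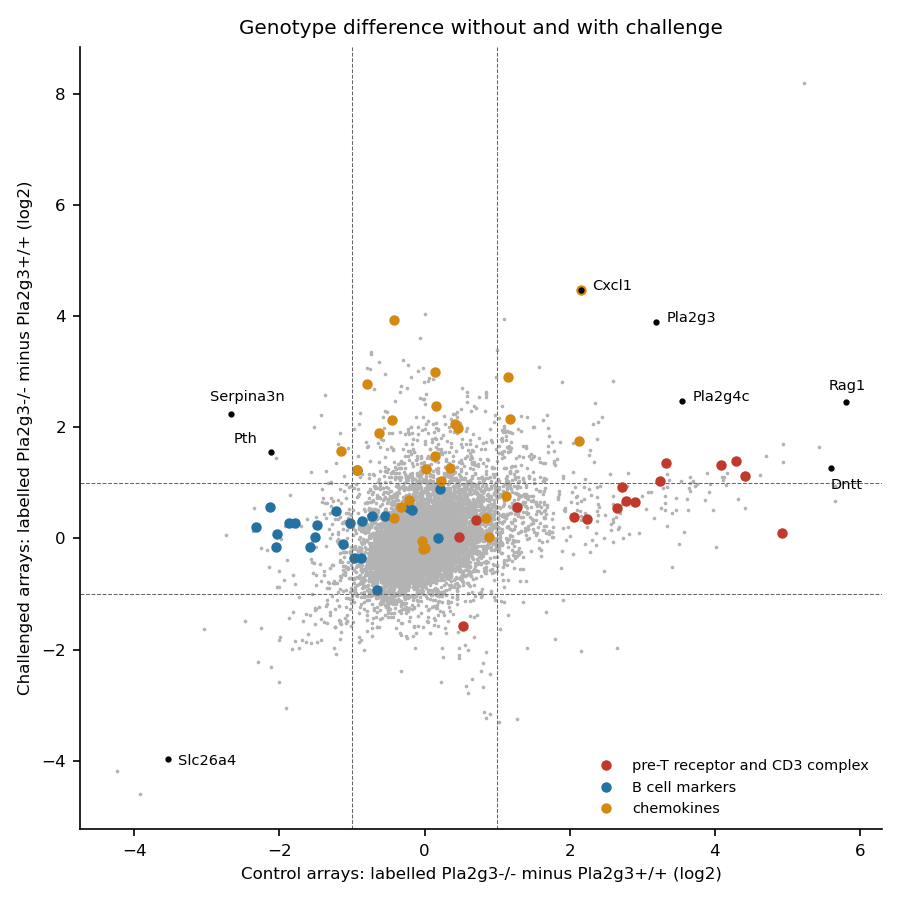
Genotype difference (log2, labelled Pla2g3-/- minus Pla2g3+/+) between the control arrays against that between the challenged arrays, for 21576 genes above background on all 4, 1 point a gene. Pre-T receptor and CD3 genes have medians of 2.74 across and 0.61 on the vertical axis, B cell genes have a median of −1.03 across, and Pla2g3 (3.19 and 3.90) and Slc26a4 (−3.54 and −3.97) lie toward opposite corners.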

How the data were processed

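Expression was measured on 4 single-colour Agilent arrays, 1 per group, of which 2 are compared here; groups came from the labels. The scanner output deposited for each array gives an intensity per spot, made by the authors with Agilent Feature Extraction 11.5.1.1 per the submitters' processing notes, with probes placed on mm9 per the file headers. The processed signal is already background-subtracted, per the file headers. The authors' series matrix equalled that signal divided by each array's 75th percentile, within 1.59e-06 on the log2 scale for all 44397 features, so its scale, centring and direction are known; its column medians were 0.0875, 0.0879, 0.0860 and 0.0850.

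From 43020 non-control spots, each array's log2 processed signal was centred on its 75th percentile. Outlier spots were left out (128 to 155 an array), no spot was saturated, and spots of 1 probe were averaged. Of 39429 probes, 28318 took their symbol from a RefSeq table (GRCm38.p6) and 11092 kept the file's name; 3401 had no gene and 19 no value. The brightest probe stood for a gene (6704 genes had several). The difference of the 2 arrays was taken with no test, since each group has 1 array, whose number limits the precision. Genes below background on 1 array are bounds. The procedure was run before use on simulated arrays, copied from the Pla2g3+/+ control array with known changes added. Their background flags were left unchanged, so the rule for bounds was not tested.

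The members and gene lists were chosen with earlier results of these data known. Genes were named by a rule: Pla2g3, the 25 largest differences in each direction among genes with a symbol that is no clone, predicted, Riken, Gm or accession name, above background on both arrays, at or above the 25th percentile of level, and with all measured probes of 1 sign; up to 10 bounds in each direction; in each list the members at least 2-fold different and up to 6 with the highest level; up to 10 genes on each side of Pla2g3 (7 before it, toward the start of the chromosome); and genes of 5 Mb windows with at least 4 called. Other genes named (Thy1, members of lists shown as level, the clone names and the receptor segments) were chosen after their values were seen. Some genes of these lists count in the lists but are not reported here by name. Alternatives were normexp background correction (offset 50), quantile normalization, median scaling, the deposited matrix, the mean of probes, and other filters. Python 3.11.15, R 4.3.3 and limma 3.58.1 (normexp only) were used.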

Additional observations from a re-analysis of the deposited data

Results flagged for a closer look

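In 6 named genes, each above background on all 4 arrays, the array labelled Pla2g3-/- differed from Pla2g3+/+ at least 2-fold in opposite directions without and with challenge. Each side is 1 array, and whether the differences themselves differ was not tested. Serpina3n, a protease inhibitor, differed by −2.67 between the control arrays and by 2.24 between the challenged arrays. Marco, a scavenger receptor of macrophages, read 4631 and 1657 units on the control arrays and 1046 and 6837 on the challenged arrays, differences of −1.37 and 2.58. Pth was at −2.11 and 1.56, and Dusp8, a MAP kinase phosphatase, at −2.05 and 1.45, where its second probe gave −0.90 and 0.37. Ccl24, a chemokine for eosinophils, was at −1.15 and 1.57, with 123 and 51.4 units and then 43.9 and 143. Ptgs2, the inducible cyclooxygenase, was at −1.15 and 1.62, with 428 and 179 units and then 447 and 1502. With normexp the control differences of Ccl24 and Ptgs2 were −0.69 and −0.92, so these 2 genes no longer differed 2-fold there.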

How the results depend on the processing

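The 2-fold counts of 754 higher and 417 lower became 356 and 95 with normexp background correction. Without the background filter 1014 had the higher and 808 the lower signal. Pla2g3 differed by 2.90 with normexp and 2.66 with the mean of its probes, in place of 3.19. Under the other settings the counts stayed between 592 and 826 higher and 286 and 500 lower. The median of all genes stayed between −0.03 and 0.00 under every setting. All 25 largest positive differences remained at least 2-fold under every setting, down to 2.09 (Slc16a5, mean of probes). Of the 25 largest negative differences, 19 did so with normexp, which left Trim69 at −0.84, Fcrl1 at −0.69, Cntd1 at −0.64, Hoxc5 at −0.75, Tnp2 at −0.63 and Dhh at −0.83. With normexp the list counts were 9 of 23 lower for B cell genes (median −0.80), 3 of 21 for endothelial genes (−0.22), 0 of 12 for MHC class II genes, 0 of 20 higher for thymic epithelium markers, 2 of 28 higher and 0 lower for chemokines, 1 of 21 higher and 0 lower for mature T cell genes, 1 of 20 higher for neutrophil genes, 0 of 9 for plasma cell genes and 0 of 34 lower for eicosanoid genes. With the mean of probes the recombination list had 4 of 9 higher and a median of 0.16. No paired analysis was possible because each group has 1 array. Signal over background limits the dimmest genes most, as shown by the SD of repeated spots.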
